A study of Mus musculus with 15 samples.

Results

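The genes for the collagens and linker proteins of basement membranes were followed in mouse hearts with chronic kidney disease (CKD). There were 10, namely Col4a1, Col4a2, Col4a3, Col4a4, Col4a5, Col15a1, Col18a1, Nid1, Nid2 and Hspg2, chosen by symbol from the 17447 genes in the count table. All 10 passed the filter on low counts that left 13021 genes for testing.

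The hearts came from 15 male C57BL/6J mice that were operated on at 6 to 8 weeks of age, and RNA was taken 18 weeks later. There were 5 groups of 3 mice. WTSHAM mice were wild type and had a sham operation. WTCKD mice were wild type, had a subtotal nephrectomy and received an empty vector by tail vein in week 2, and WTCKD + RNLS mice received AAV9-cTnT-Rnls in its place, a virus that carries renalase (RNLS) under a cardiomyocyte promoter. KOCKD and KOCKD + RNLS mice carried the rnls-/- allele, made with TALENs against exon 4, and were otherwise treated as WTCKD and WTCKD + RNLS. Every group except WTSHAM thus shared the nephrectomy and an AAV injection, and no knockout sham hearts were analysed here. Rnls was not among the genes counted, so the genotypes rest on the labels. In bulk heart RNA, fewer cells of a type and less RNA per cell cannot be told apart.

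Basement membranes are thin sheets of matrix that surround cardiomyocytes, smooth muscle cells and capillary endothelium. Their backbone is a network of collagen IV beside a network of laminin, and nidogens and perlecan link the networks to each other. In the heart most collagen IV is the heterotrimer of the chains encoded by Col4a1 and Col4a2, whereas the chains of Col4a3, Col4a4 and Col4a5 are best known from the kidney glomerulus, the inner ear and the lens. Collagens XV and XVIII are basement membrane proteoglycans, and the end fragment of collagen XVIII is endostatin.

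Col4a1 and Col4a2 lie head to head on chromosome 8. In the mm9 annotation (GENCODE vM1), Col4a1 spans chr8:11198423-11312826 on the minus strand and Col4a2 chr8:11312805-11449287 on the plus strand, so that their first exons share 22 bases. These bases are shown because the expression of these genes moved most in parallel of all the members, with RefSeq coordinates chr8:11312805-11312826 (GRCm38.p6, plus strand). Upstream sequence is also shown for Col4a5, the member that rose with RNLS in the knockout hearts, and for Hspg2, the longest member. The Col4a5 sequence lies at chrX:141475169-141475369 (plus strand, 201 bases) and the Hspg2 sequence at chr4:137468553-137468750 (plus strand, 198 bases), both from RefSeq on GRCm38.p6 and both ending before the first annotated base of the gene. Capitals mark the GC box GGGCGG and the CCAAT box on either strand.
Col4a1 and Col4a2, shared bases: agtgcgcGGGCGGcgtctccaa
Col4a5, upstream: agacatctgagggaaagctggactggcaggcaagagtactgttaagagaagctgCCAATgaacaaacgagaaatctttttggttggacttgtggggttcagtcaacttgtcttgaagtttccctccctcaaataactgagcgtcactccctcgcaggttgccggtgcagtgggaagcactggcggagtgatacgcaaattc
Hspg2, upstream: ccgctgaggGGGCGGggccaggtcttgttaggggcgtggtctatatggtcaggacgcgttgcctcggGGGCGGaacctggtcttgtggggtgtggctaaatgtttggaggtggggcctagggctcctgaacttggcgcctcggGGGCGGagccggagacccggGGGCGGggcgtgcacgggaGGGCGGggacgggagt

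RefSeq promoter windows matched 8 of the 10 members, all but Col4a3 and Nid2, with 9 windows of 250 bases upstream because Col18a1 has more than 1 start. The GC content of these windows ran from 53.6% to 74.4%, against a median of 52.4% over all 32817 windows. A GC box was found in 5 of the 9 windows and in 32.7% of all windows, and a CCAAT box in 5 of the 9 and in 33.8% of all. Neither the E-box CACGTG, held by 6.02% of all windows, nor the TATA box TATAAA, held by 12.4%, occurred in a member's window, and the 4 motifs do not overlap in their letters. The Hspg2 window held 5 GC boxes, the first Col18a1 window 3, the Col4a2 window 2, and the Col4a1, Col4a4 and Col15a1 windows 0. A match is a description of the letters and not a binding site.

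Levels were compared between genes as FPKM, the deposited values scaled for the length of the gene and the number of reads. Col4a1 was the highest member with a mean of 71.2 FPKM over the 15 libraries (range 37.1 to 110.9), above 93.7% of the genes tested. Col4a2 followed with 63.8 FPKM and was below Col4a1 in 14 of 15 libraries. Perlecan, the heparan sulfate proteoglycan encoded by Hspg2, had 47.6 FPKM, and Col4a2 was above it in 11 of 15 libraries, so that this order changed between libraries. The nidogen gene Nid1 had 29.4 FPKM and Col15a1 21.4 FPKM, with Nid1 above in 14 of 15 libraries. Nid2, the other nidogen gene, had 6.34 FPKM and Col4a5 5.96 FPKM. Nid2 was above Col4a5 in 6 of 15 libraries, and their levels did not differ beyond the spread. Col18a1 had 2.29 FPKM. Col4a4 with 0.906 FPKM and Col4a3 with 0.457 FPKM stood at the low end, and only 9.55% of the genes tested were below Col4a3. From Col15a1 to Nid2 and from Col4a5 down to Col4a3, each step was in the same direction in all 15 libraries.

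**Figure D1:**
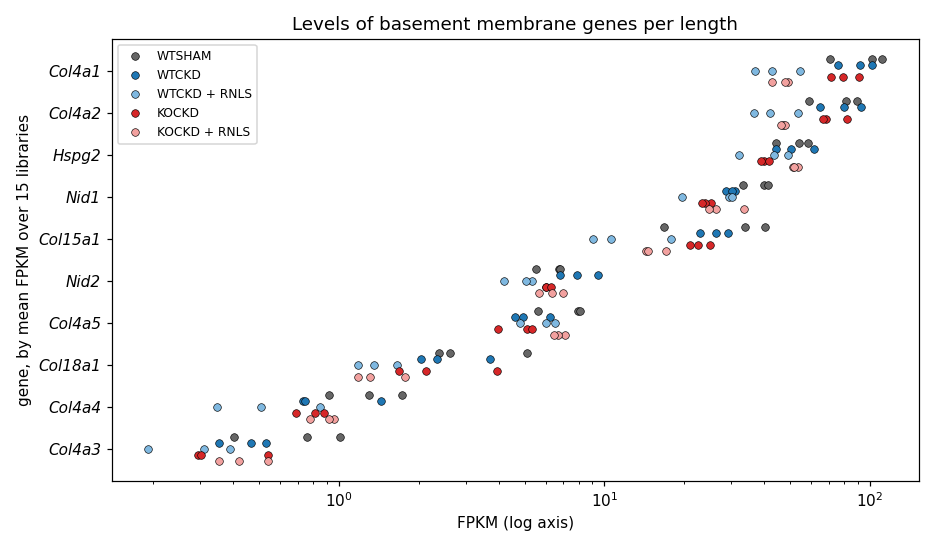
FPKM of the 10 genes in the 15 heart libraries, on a log axis, with the genes ordered by their mean and 1 point per library coloured by group. Col4a1 and Col4a2 reach 37.1 to 110.9 and 36.5 to 92.4 FPKM, while Col4a3 stays between 0.191 and 1.01 FPKM.

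Libraries held between 10480788 and 13424078 counted reads, and values in CPM, the reads of a gene scaled to a common library size, below were scaled by the TMM method. WTSHAM replicate 1, WTCKD replicate 1 and WTCKD + RNLS replicate 2 were each the lowest library of their group for 10 of the 10 members. WTCKD + RNLS replicate 3 was the highest of its group for 9. In WTCKD + RNLS replicate 2 genes over 8000 bases had a median deviation of -0.17 from the mean of all libraries and genes under 1500 bases one of 0.24, on the log2 scale. Libraries of a group differed by more than the sampling noise of their counts, with a chi-square per gene of 4.45 to 20.4. Differences between groups are log2 fold changes of edgeR's quasi-likelihood test with their standard errors (SE), and a gene is said to have fallen or risen where the Benjamini-Hochberg adjusted p over all 13021 genes was under 0.05. The 3 mice of a group are the replicates.

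Cardiac RNLS delivery went with lower Col4a1 and Col4a2 in both genotypes. Col4a1 had 496, 582 and 685 CPM in the WTCKD hearts and 288, 265 and 371 CPM in the WTCKD + RNLS hearts. In the knockouts it had 595, 536 and 462 CPM in KOCKD and 323, 314 and 281 CPM in KOCKD + RNLS. Every treated heart was below every vector-treated heart of its genotype. The log2 fold change of Col4a1 was -0.93 (SE 0.158, adjusted p = 0.00432, edgeR) in wild type, a level of 0.524 of that with vector, and -0.80 (SE 0.157, adjusted p = 0.00462) in knockout.

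Col4a2, whose product joins the Col4a1 chain in the same trimer, had 414, 494 and 608 CPM in WTCKD and 275, 254 and 355 CPM in WTCKD + RNLS. KOCKD hearts had 523, 449.8 and 424 CPM and KOCKD + RNLS hearts 304, 306 and 295 CPM. The groups did not overlap in either genotype, and the KOCKD + RNLS values were the most even of all. Col4a2 fell by 0.78 on the log2 scale in wild type (SE 0.154, adjusted p = 0.0103, edgeR) and by 0.63 in knockout (SE 0.154, adjusted p = 0.0136). Without WTCKD + RNLS replicate 1 the adjusted p in wild type was 0.0508 at a log2 fold change of -0.73.

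Among the other collagen IV chains, Col4a5 rose with RNLS in knockout, and Col4a3 and Col4a4 did not pass in either genotype. Col4a5 (chrX:137909928-138123778, plus strand, mm9) had 29.9, 39.3 and 32.9 CPM in WTCKD and 40.3, 34.1 and 43.8 CPM in WTCKD + RNLS, which overlap. In the knockouts it had 33.3, 26.6 and 34.2 CPM with vector and 46.4, 43.5 and 42.1 CPM with RNLS. Here every treated heart was higher, and Col4a5 rose by 0.49 on the log2 scale (SE 0.136, adjusted p = 0.0217, edgeR). The rise in wild type was 0.21 with an adjusted p of 0.417. Without KOCKD replicate 2, KOCKD + RNLS replicate 1 or KOCKD + RNLS replicate 2, the knockout value of Col4a5 had an adjusted p of 0.107, 0.0752 or 0.0573, respectively.

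Col4a3 and Col4a4, a second head-to-head pair with 71 bases between their starts on chromosome 1 in mm9, were scarce. Col4a4 had 7.69, 14.7 and 8.08 CPM in WTCKD and 5.51, 3.99 and 9.26 CPM in WTCKD + RNLS, with overlap. In KOCKD it had 8.57, 7.45 and 9.18 CPM and in KOCKD + RNLS 10.2, 9.68 and 8.15 CPM. Col4a3 ran from 3.13 to 4.59 CPM in WTCKD, from 1.86 to 3.60 CPM in WTCKD + RNLS, from 2.66 to 4.81 CPM in KOCKD and from 3.17 to 4.80 CPM in KOCKD + RNLS. Neither passed the test with RNLS, with log2 fold changes of -0.51 and -0.68 in wild type and 0.20 and 0.15 in knockout for Col4a3 and Col4a4. The 95% interval of the Col4a3 value in wild type ran from -1.22 to 0.19, which holds both 0 and the fall of Col4a1. For Col4a4 in wild type the unadjusted p was 0.0381 and the adjusted p 0.222 (edgeR).

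**Figure D2:**
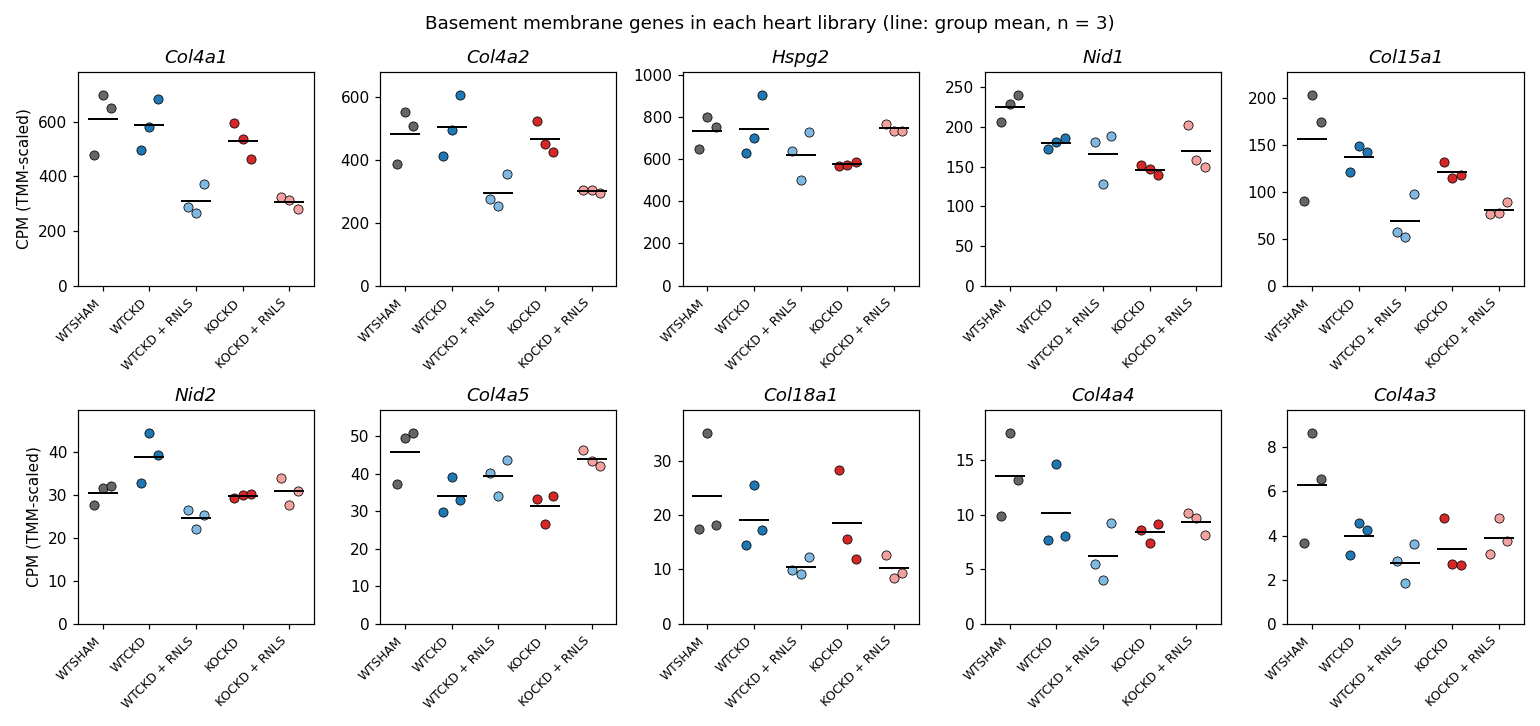
TMM-scaled CPM of each gene in the 3 libraries of each group, 1 panel per gene, with 1 point per library and a line at the group mean; each axis starts at 0. In the Col4a1 and Col4a2 panels the treated hearts of both genotypes (254 to 371 CPM) lie below all hearts of the other 3 groups, whose lowest value is 386 CPM.

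Collagens XV and XVIII were lower in the means of both genotypes. Col15a1 (chr4:47221033-47326039, plus strand, mm9) had 121, 149 and 143 CPM in WTCKD and 57.2, 52.3 and 97.6 CPM in WTCKD + RNLS. KOCKD hearts had 132, 114 and 118 CPM and KOCKD + RNLS hearts 76.1, 77.1 and 89.6 CPM. The groups did not overlap in either genotype. The single comparisons did not pass, with a log2 fold change of -0.99 (SE 0.284, adjusted p = 0.0779, edgeR) in wild type and -0.59 (SE 0.283, adjusted p = 0.184) in knockout. In wild type Col15a1 did pass without WTCKD + RNLS replicate 3 (adjusted p = 0.0333), by DESeq2 (adjusted p = 0.0125, where 6.27% of all genes passed) and without robust estimation (adjusted p = 0.0289), an alternative chosen after seeing the data. In knockout it passed with only the libraries of the comparison in the fit (adjusted p = 0.000207), a fit in which 25.6% of all genes passed.

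Col18a1 (chr10:76514923-76629293, minus strand, mm9) had 14.5, 25.6 and 17.3 CPM in WTCKD and 9.93, 9.19 and 12.3 CPM in WTCKD + RNLS. In KOCKD it had 28.3, 15.7 and 11.9 CPM, the widest spread of a vector group, and in KOCKD + RNLS 12.8, 8.44 and 9.37 CPM. The groups overlapped in knockout and not in wild type. Both log2 fold changes were -0.87, with SE 0.366 and adjusted p = 0.214 in wild type and SE 0.367 and adjusted p = 0.13 in knockout (edgeR). Without KOCKD replicate 1, the highest of its group, the knockout value was -0.43 (adjusted p = 0.433). Col18a1 passed in wild type with only the libraries of the comparison (adjusted p = 0.0432), where 3.42% of all genes passed, and in knockout by DESeq2 (adjusted p = 0.0354), where 19.1% did.

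The nidogens did not move alike. Nid2 (chr14:20570479-20631009, plus strand, mm9) had 32.8, 44.4 and 39.1 CPM in WTCKD and 26.5, 22.0 and 25.3 CPM in WTCKD + RNLS, with no overlap, and fell by 0.65 on the log2 scale (SE 0.117, adjusted p = 0.00444, edgeR). In the knockouts the values were 29.2, 30.0 and 30.2 CPM with vector and 34.0, 27.5 and 30.8 CPM with RNLS, a log2 fold change of 0.05 (95% interval -0.20 to 0.29). Nid2 shares 386 exon bases with a gene on the opposite strand, named Rtraf in the count table and 2700060E02Rik in mm9, and the strand setting of the counting was not given. Rtraf had a log2 fold change of 0.01 (SE 0.102, adjusted p = 0.98) with RNLS in wild type and of -0.31 (SE 0.103, adjusted p = 0.0478) in knockout.

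Nid1 (chr13:13529869-13604542, plus strand, mm9) had 172, 181 and 186 CPM in WTCKD and 181, 129 and 188 CPM in WTCKD + RNLS. KOCKD hearts had 151, 147 and 139 CPM and KOCKD + RNLS hearts 203, 158 and 149 CPM. The groups overlapped in both genotypes, and Nid1 did not pass, with log2 fold changes of -0.11 (adjusted p = 0.696) and 0.22 (adjusted p = 0.254). The interval in wild type, -0.38 to 0.16, does not hold the fall of Nid2.

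Hspg2 (chr4:137024634-137126545, plus strand, mm9) had 631, 698 and 905 CPM in WTCKD and 638, 499 and 729 CPM in WTCKD + RNLS, which overlap. In the knockouts it had 568, 570.4 and 588 CPM with vector and 768, 733 and 736 CPM with RNLS, with no overlap. The log2 fold change was -0.26 (SE 0.132, adjusted p = 0.291, edgeR) in wild type and 0.37 (SE 0.132, adjusted p = 0.0626) in knockout, where DESeq2 gave an adjusted p of 0.0329 and the fit of only those libraries 0.000506. Gene length moved with these values. Among all genes the median log2 fold change in the knockout comparison was -0.30 under 1500 bases, 0.15 from 5000 to 8000 bases and 0.31 over 8000 bases, against 0.03, 0.02 and 0.07 in wild type. Hspg2 is 14402 bases long by its FPKM and Col4a5 6551. With a length trend removed from each library, the knockout log2 fold change of Hspg2 was 0.03 (adjusted p = 0.892) and that of Col4a5 0.31 (adjusted p = 0.108). Col4a1 and Col4a2, at 6615 and 6450 bases, had -0.97 and -0.79 in knockout and still passed. In wild type the same step made the lower value of Hspg2 pass (adjusted p = 0.032, edgeR), in a fit where 723 of 13021 genes passed.

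In count, 3 of the 10 members fell and 0 rose with RNLS in wild type, where 2.29% of all genes fell and 2.17% rose. In knockout 2 fell and 1 rose, against 7.1% and 9.1% of all genes. The median log2 fold change of the members was -0.67 in wild type and 0.10 in knockout, beside 0.01 and -0.01 over all genes tested.

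**Figure D3:**
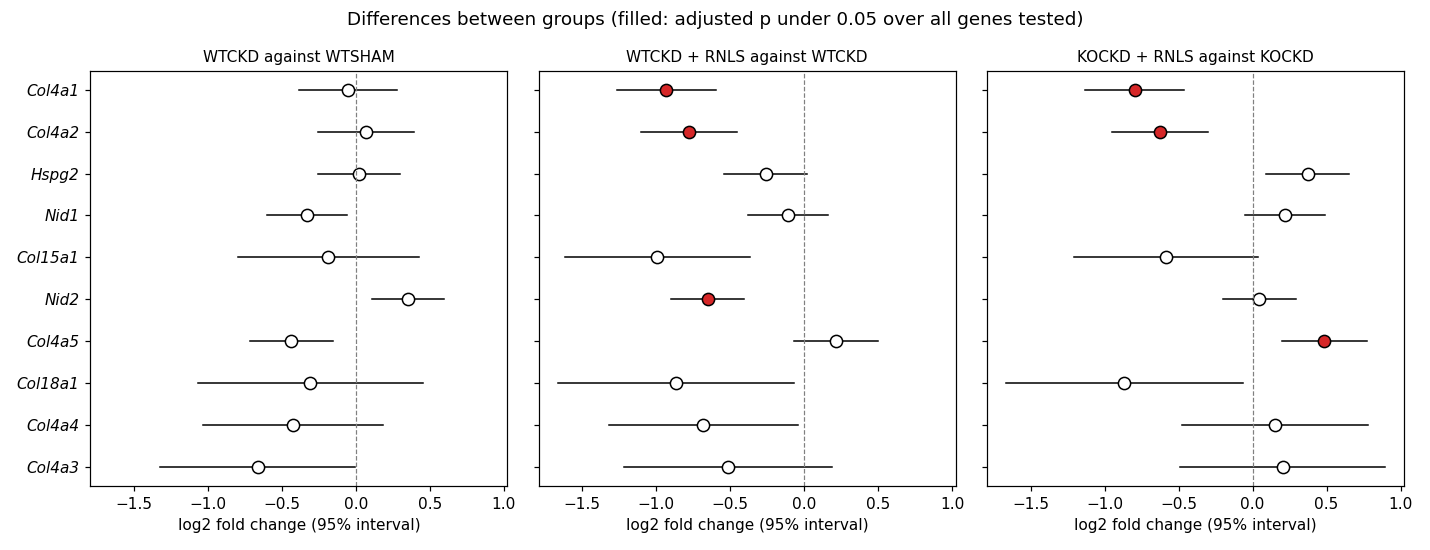
Log2 fold changes of the 10 genes with their 95% intervals in 3 comparisons, with filled circles where the adjusted p over all genes was under 0.05. In WTCKD against WTSHAM no circle is filled, while Col4a1 and Col4a2 are filled on the lower side in both RNLS comparisons, Nid2 in the wild-type comparison, and Col4a5 on the higher side in knockout.

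Averaged over both genotypes, in a contrast that uses the same hearts, 5 members fell and 1 rose, where 7.27% of all genes fell and 10.6% rose. Col4a1 fell by 0.86 (SE 0.111, adjusted p = 0.000163, edgeR) and Col4a2 by 0.70 (SE 0.109, adjusted p = 0.000557) on the log2 scale. Col15a1 fell by 0.79 (adjusted p = 0.02), Col18a1 by 0.87 (adjusted p = 0.0379) and Nid2 by 0.30 (adjusted p = 0.0168), and Col4a5 rose by 0.35 (adjusted p = 0.0171). Col4a4 with -0.27, Col4a3 with -0.16, Nid1 with 0.05 and Hspg2 with 0.06 did not pass. The call for Col18a1 was lost under 13 of 21 alternatives, that for Nid2 under 4, and those for Col15a1 and Col4a5 under 3 each. Those for Col4a1 and Col4a2 were kept under all 21.

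Whether the RNLS response differed between the genotypes was tested as an interaction, the knockout log2 fold change minus the wild-type one. No member passed, nor did any gene (0%), while 2 members had an unadjusted p under 0.05, as did 17.5% of all genes. Nid2 had a difference of 0.70 (SE 0.166, unadjusted p = 0.000517, adjusted p = 0.104, edgeR) and Hspg2 of 0.63 (SE 0.187, unadjusted p = 0.00348, adjusted p = 0.125), and DESeq2 gave adjusted p values of 0.0154 and 0.0296, where 5.55% of the genes with an adjusted p passed. For Col4a1 the difference was 0.14, with a 95% interval from -0.33 to 0.61, and for Col4a2 0.15, from -0.31 to 0.61. The differences of Col4a4 and Col4a3 were 0.83 and 0.72, those of Col15a1, Nid1 and Col4a5 were 0.41, 0.33 and 0.27, and that of Col18a1 was 0.0002 (-1.25 to 1.25). Over the members the median difference was 0.37 and 0 of 10 were negative, beside a median of 0.01 and 48.5% negative over all genes. The same trend with length applies here. Among all genes the median difference was -0.33 under 1500 bases, 0.15 from 5000 to 8000 bases and 0.24 over 8000 bases. Every member except Nid2, at 4884 bases by its FPKM, is over 5000 bases long. With a length trend removed from each library, the difference was 0.60 for Nid2 (adjusted p = 0.186, edgeR) and 0.40 for Hspg2 (adjusted p = 0.288). Those of Col4a1 (-0.018) and Col18a1 then turned negative. The part of gene length in these differences was not tested.

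WTCKD and WTSHAM hearts differ in nephrectomy and vector together, so the effect of CKD alone cannot be told apart here. In WTCKD against WTSHAM 2.35% of all genes passed by edgeR and 4.55% by DESeq2. Of the members, 0 were past the threshold by edgeR and 0 by DESeq2. By an unadjusted p under 0.05, 4 members were past it, beside 17.3% of all genes. Nid2 was higher, with 27.5, 31.5 and 32.0 CPM in WTSHAM and no overlap with WTCKD, at a log2 fold change of 0.35 (SE 0.116, adjusted p = 0.116, edgeR). Nid1 had 206, 229 and 240.5 CPM in WTSHAM, all above the WTCKD hearts, and a log2 fold change of -0.33 (SE 0.128, adjusted p = 0.193). Col4a5 had 37.4, 49.5 and 50.9 CPM in WTSHAM, overlapping WTCKD, and a log2 fold change of -0.44 (SE 0.134, adjusted p = 0.0962). Without WTSHAM replicate 1, the lowest of its group, Col4a5 passed.

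For the main collagen IV pair the CKD values stayed near those of sham. Col4a1 had 479, 699 and 651 CPM in WTSHAM, and the log2 fold change of -0.05 had a 95% interval from -0.38 to 0.28. Col4a2 had 386, 552 and 507 CPM in WTSHAM and a log2 fold change of 0.07 (-0.26 to 0.39). Hspg2 had 647, 799 and 751 CPM and 0.02 (-0.25 to 0.30). Col15a1 spread most within WTSHAM, from 90.8 to 204 CPM, Col18a1 from 17.5 to 35.1, Col4a4 from 9.92 to 17.5 and Col4a3 from 3.67 to 8.65 CPM, and their log2 fold changes of -0.19, -0.31, -0.42 and -0.66 did not pass.

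All 10 log2 fold changes of WTCKD + RNLS against WTSHAM were negative, where 49.3% of all genes were. This comparison shares the WTCKD + RNLS hearts with the RNLS comparison in wild type. There 6 members fell and 0 rose, where 4.65% of all genes fell and 2.77% rose. Col4a1 had a log2 fold change of -0.98 (SE 0.158, adjusted p = 0.00174, edgeR), and its call was kept under all 15 alternatives. Col4a2 had -0.71 (adjusted p = 0.0116), Col4a3 -1.18 (adjusted p = 0.0343), Col4a4 -1.10 (adjusted p = 0.0343), Col15a1 -1.18 (adjusted p = 0.0315) and Nid1 -0.44 (adjusted p = 0.0448). These calls were lost under 2 alternatives for Col4a2, 8 for Col4a3 and 7 each for Col4a4, Col15a1 and Nid1. Without WTSHAM replicate 2 only Col4a1 passed, in a fit where 406 of 13146 genes did. For Col15a1 the groups overlapped although it fell. Its WTCKD + RNLS replicate 3 at 97.6 CPM was above WTSHAM replicate 1 at 90.8 CPM. With only the libraries of the comparison in the fit 2 members passed, where 2.36% of all genes did. Of the other members, Col18a1 had -1.17 (adjusted p = 0.0723), with no overlap between the groups, and DESeq2 gave an adjusted p of 0.00499 where 10.1% of the genes passed. Nid2 had -0.30 (adjusted p = 0.128), Hspg2 -0.24 (adjusted p = 0.29) and Col4a5 -0.22 (adjusted p = 0.324, edgeR).

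Knockout and wild-type hearts with CKD and vector differed in 0 members past the threshold by edgeR and 0 by DESeq2, and 0.023% and 0.0981% of all genes passed. All 10 log2 fold changes of KOCKD against WTCKD were negative, where 50.8% of all genes were, and 3 had an unadjusted p under 0.05, beside 9.85% of all genes. Those were Nid2 with -0.38 (adjusted p = 0.433), Hspg2 with -0.37 (adjusted p = 0.457) and Nid1 with -0.30 (adjusted p = 0.486, edgeR), each with no overlap between the groups. Col4a4 had -0.27, Col4a3 -0.23, Col15a1 -0.18, Col4a1 -0.15, and both Col4a2 and Col4a5 -0.12, while Col18a1 had -0.04, and the groups of these members overlapped. Genes over 8000 bases had a median of -0.14 in this comparison, genes of 5000 to 8000 bases one of -0.08 and genes under 1500 bases one of 0.16.

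Ratios of counts within a library compare the members of a pair without any scaling between libraries. There were 400 ways to exchange the RNLS and vector labels within the genotypes, so that the smallest p of the exact two-sided permutation test was 0.005, and p was adjusted over the 3 ratios. The ratio of Col4a1 to Col4a2 was 1.24, 1.27 and 1.29 in WTSHAM, 1.20, 1.18 and 1.13 in WTCKD and 1.05, 1.04 and 1.05 in WTCKD + RNLS. It was 1.14, 1.19 and 1.09 in KOCKD and 1.06, 1.03 and 0.951 in KOCKD + RNLS. With RNLS each library of either genotype was below all those with vector, a log2 change of -0.16 (exact permutation p = 0.005, the smallest possible, adjusted p = 0.015). The change was -0.16 in wild type and -0.17 in knockout, so that Col4a1 fell slightly more than Col4a2.

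For the nidogens, the ratio of Nid1 to Nid2 was 7.46, 7.26 and 7.51 in WTSHAM, 5.23, 4.07 and 4.74 in WTCKD and 6.82, 5.83 and 7.40 in WTCKD + RNLS. It was 5.17, 4.91 and 4.60 in KOCKD and 5.97, 5.75 and 4.82 in KOCKD + RNLS, which overlap. The log2 change with RNLS was 0.34 (exact permutation p = 0.015, adjusted p = 0.0225), made up of 0.52 in wild type and 0.17 in knockout. Col15a1 to Col18a1 ran from 4.66 to 9.84 over the libraries and showed no change with RNLS (exact permutation p = 1), with -0.21 in wild type and 0.21 in knockout on the log2 scale.

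**Figure D4:**
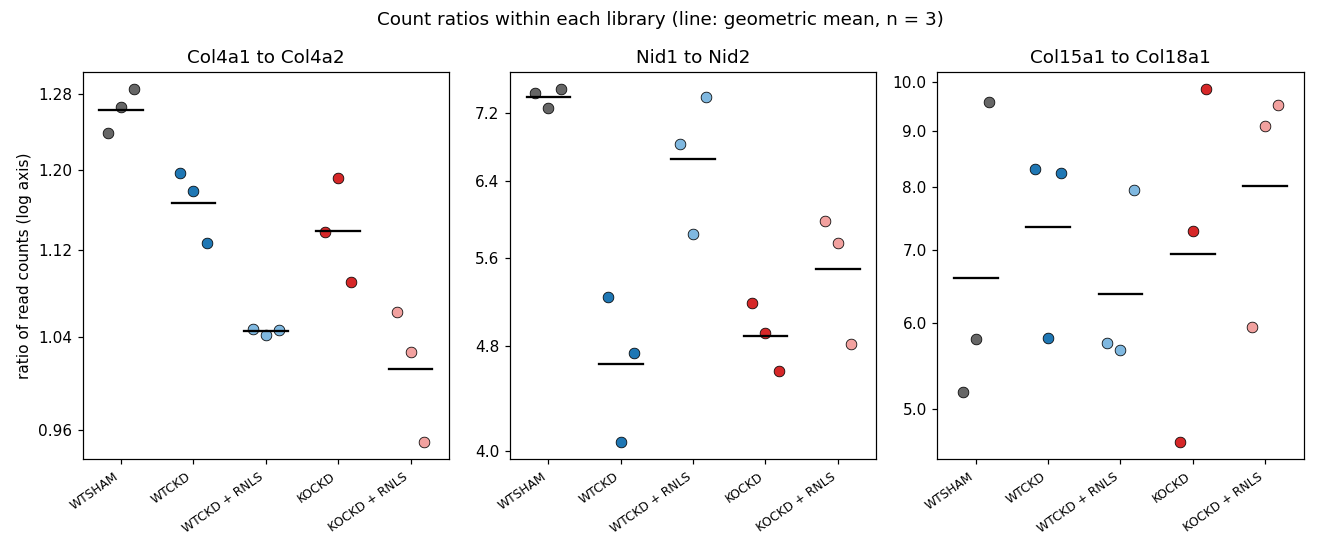
Ratio of read counts of 3 gene pairs within each library, on log axes, with 1 point per library and a line at the geometric mean of each group. The Col4a1 to Col4a2 ratio falls from 1.24 to 1.29 in WTSHAM to 1.04 to 1.05 in WTCKD + RNLS. The Nid1 to Nid2 ratio has its lowest geometric means in WTCKD and KOCKD, with libraries at 4.07 to 5.23 and 4.60 to 5.17.

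Over the 15 libraries Col4a1 and Col4a2 had a Pearson r of 0.98 in log2 CPM, and 0.97 after the group means were removed. Col15a1 followed Col4a1 with 0.92 (0.81 within groups) and Col18a1 with 0.86 (0.63 within groups). Col4a5 had -0.12 with Col4a1 over all libraries and 0.60 within groups. These values describe libraries that share groups, scaling and composition, and they carry no test.

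Among 11614 other genes with an average log2 CPM over 1, the 3 most like each member over the 15 libraries were found by Pearson r. For Col4a1 these were Tspan18 (0.96), Col5a3 (0.96) and Col3a1 (0.96), and for Col4a2 Tspan18, Col5a3 and Rflnb (0.93 to 0.95). Col15a1 had Fbn1, Col6a2 and Cd93 (0.92 to 0.93), and Col18a1 had Eln, Fstl1 and Col1a1 (0.93 each). For Col4a5 they were Abca8a, Rrbp1 and Dmxl1 (0.94 to 0.95), and for Nid1 Arhgef10, Lrp1 and Csf2ra (0.92 to 0.93). Hspg2 had Xiap, Ptprg and Cspg4 (0.89 to 0.90), Nid2 had Mospd2, Papss1 and Fermt2 (0.85 to 0.87), Col4a3 had Itpripl2, Arhgef40 and Tfdp1 (0.87 to 0.88), and Col4a4 had Ecm2, Zeb2 and Itih5 (0.88 each).

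The laminins form the network beside that of collagen IV. Of 10 laminin genes tested, 0 fell and 1 rose with RNLS in wild type, and Lamb3 rose by 0.56 on the log2 scale (adjusted p = 0.0324, edgeR). In knockout 3 rose, Lama2 by 0.52 (adjusted p = 0.0026), Lamb2 by 0.40 (adjusted p = 0.0215) and Lamc1 by 0.36 (adjusted p = 0.0405). The median of the laminins was 0.05 in wild type and 0.27 in knockout. Among all genes the knockout median was 0.15 from 5000 to 8000 bases and 0.31 over 8000 bases. This length trend was not removed from the laminin values or from those of the lists that follow. Between WTCKD and WTSHAM 0 laminins passed by edgeR, with 2 at an unadjusted p under 0.05.

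Of 14 other basement membrane components, 2 fell with RNLS in wild type, Sparc, a collagen-binding protein, by 0.87 (adjusted p = 0.0016, edgeR) and Vwa1, a perlecan-binding protein, by 0.76 (adjusted p = 0.00365). Both also fell in knockout, by 0.48 (adjusted p = 0.0198) and 0.63 (adjusted p = 0.00477), where Hmcn1, which encodes hemicentin, rose by 0.71 (adjusted p = 0.0319). In WTCKD against WTSHAM the genes for agrin and pikachurin, Agrn and Egflam, fell by 0.91 (adjusted p = 0.0398) and 0.55 (adjusted p = 0.0419). The medians of this list were -0.37 in wild type and -0.05 in knockout with RNLS.

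Collagen processing genes did not pass with RNLS in wild type (0 of 13 tested by edgeR, 5 at an unadjusted p under 0.05, median -0.09). In knockout Serpinh1, the collagen chaperone HSP47, fell by 0.65 (adjusted p = 0.0039, edgeR) and Ppib, a prolyl isomerase, by 0.36 (adjusted p = 0.0111), while Mia3, a procollagen export factor, rose by 0.37 (adjusted p = 0.00749). In WTCKD against WTSHAM P4ha2, a prolyl hydroxylase subunit, fell by 0.58 (adjusted p = 0.0174) and Serpinh1 by 0.52 (adjusted p = 0.0388).

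Among 12 receptors for basement membranes, Itga6, an integrin chain that binds laminin, fell by 0.67 with RNLS in wild type (adjusted p = 0.0361, edgeR). Itga1, the integrin chain that binds collagen IV, rose by 0.36 in knockout (adjusted p = 0.0375) and fell by 0.46 in WTCKD against WTSHAM (adjusted p = 0.0339). Ddr2, a collagen receptor kinase, rose by 0.65 in knockout (adjusted p = 0.0357).

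Some fibrillar collagens fell beside Col4a1 and Col4a2. Of 7 tested, 2 fell with RNLS in wild type and 3 in knockout, and 0 rose. In wild type Col3a1 fell by 1.72 (adjusted p = 0.00714, edgeR) and Col5a3 fell by 1.59 (adjusted p = 0.0175). In knockout Col3a1 fell by 1.58 (adjusted p = 0.00457) and Col5a3 fell by 1.82 (adjusted p = 0.00492). Col1a1 fell by 1.10 in knockout (adjusted p = 0.0352). The medians were -0.79 and -0.38, and 0 fibrillar collagens passed between WTCKD and WTSHAM by edgeR, with 3 at an unadjusted p under 0.05.

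Markers of endothelium, a main source of collagen IV in the heart, moved in the same direction as Col4a1 and Col4a2. The sum of 10 endothelial markers was 1646 to 1873 CPM in WTCKD and 1298 to 1362 CPM in WTCKD + RNLS, and 1494 to 1787 CPM in KOCKD and 1415 to 1474 CPM in KOCKD + RNLS. With RNLS 4 of the 10 fell in wild type, with a median of -0.24, and 2 in knockout, with a median of -0.23. Pecam1 fell by 0.55 (adjusted p = 0.00284, edgeR), Emcn by 0.61 (adjusted p = 0.00591), Cdh5 by 0.50 (adjusted p = 0.00624) and Kdr by 0.59 (adjusted p = 0.0102) in wild type. In knockout Esam fell by 0.38 (adjusted p = 0.00547) and Pecam1 by 0.29 (adjusted p = 0.037). The part of these markers in the lower collagen IV values was not tested.

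**Figure D5:**
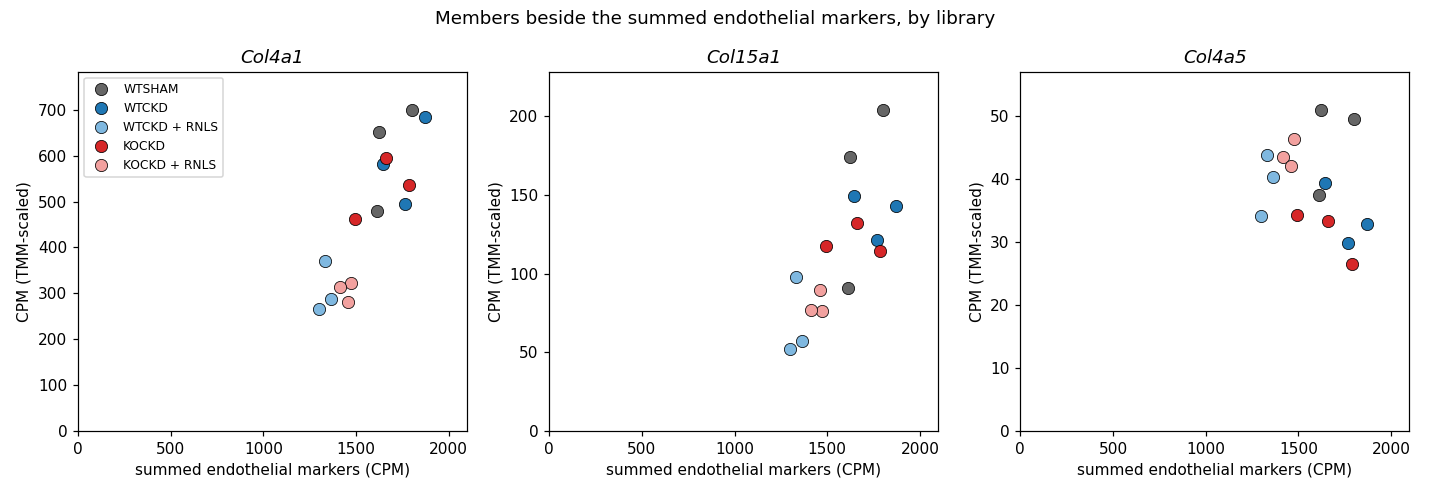
CPM of Col4a1, Col15a1 and Col4a5 against the summed CPM of 10 endothelial markers, 1 point per library coloured by group, with both axes starting at 0. The RNLS hearts lie at 1298 to 1474 CPM of endothelial markers and at 265 to 371 CPM of Col4a1, below and to the left of the other groups, and within the range of the other groups for Col4a5.

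Summed markers of other cell types stood beside these values, and their part in the results was not tested. The summed cardiomyocyte markers were 92215 to 107153 CPM in WTCKD and 114470.0 to 123309 CPM in WTCKD + RNLS, and 93799 to 99833 CPM in KOCKD and 106806 to 110021 CPM in KOCKD + RNLS. Of the 9 cardiomyocyte markers Ttn, which encodes titin, rose with RNLS in both genotypes, and in knockout Myh6 also rose, by 0.52 (adjusted p = 0.00175, edgeR), as did Ryr2, by 0.34 (adjusted p = 0.018). The median log2 fold change of the 9 was 0.23 in wild type, with 0 negative, and -0.05 in knockout, with 5 negative. Activated fibroblast markers summed to 329 to 435 CPM in WTCKD and 274 to 282 CPM in WTCKD + RNLS, with no overlap, and to 272 to 491 CPM in KOCKD and 253 to 335 CPM in KOCKD + RNLS. Meox1 fell in both genotypes, by 1.55 (adjusted p = 0.0016) and 1.26 (adjusted p = 0.00239), and Postn, which encodes periostin, fell by 1.27 in wild type (adjusted p = 0.0468). Macrophage markers summed to 209 to 277 CPM in WTCKD and 182 to 205 CPM in WTCKD + RNLS, with no overlap, and to 176 to 215 CPM in KOCKD and 143 to 193 CPM in KOCKD + RNLS. Of 7 macrophage markers 0 passed in wild type by edgeR, with 4 at an unadjusted p under 0.05, and C1qa, a complement chain, fell by 0.47 in knockout (adjusted p = 0.0243). Fibroblast markers summed to 2233 to 3711 CPM in WTCKD and 1815 to 2629 CPM in WTCKD + RNLS, which overlap, and to 2028 to 2748 CPM and 2169 to 2458 CPM in the knockouts. Atrial markers exceeded 1000 CPM in 4 libraries, 1 of WTSHAM, 2 of WTCKD, 1 of KOCKD and 0 with RNLS. Without these 4 libraries Col4a1 had a log2 fold change with RNLS of -1.15 (adjusted p = 0.0321, edgeR) in wild type and -0.88 (adjusted p = 0.0118) in knockout, and Col4a2 of -1.04 (adjusted p = 0.0378) and -0.68 (adjusted p = 0.024). Nid2 in wild type had -0.66 with an adjusted p of 0.107, and its call was lost, with 1 WTCKD library left that was assumed to vary like the others.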

How the data were processed

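The authors trimmed the reads with Trimmomatic, mapped them with hisat2 and counted them per gene with htseq-count, and the deposited counts are whole numbers without normalization. The study's methods give the genome as mm9, whereas the submitters' processing notes list GRCm39, and versions, annotation and strand setting were not given in the sources used here. The deposited FPKM, by cufflinks in the methods, equal the counts scaled for gene length and library total. Tests used the counts, with edgeR 4.0.16 in R 4.3.3, TMM scaling, the default filter (minimum count 10, total 15), 1 quasi-likelihood fit with robust estimation over 15 libraries with the group as the only term, and Benjamini-Hochberg adjustment. Ratios were taken of counts plus 0.5. Positions are from GENCODE vM1 (mm9) and sequences from RefSeq (GRCm38.p6). The code was tested on simulated data. DESeq2 1.42.0, other scalings and filters, a replicate block, length offsets and leaving out each library were alternatives. The members and all gene lists were chosen with earlier results of these data known. Every member is named in every comparison, and from each list up to 4 genes with the smallest adjusted p under 0.05 are named, except that some items are not reported here.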

Additional observations from a re-analysis of the deposited data

How the results depend on the processing

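Of 70 values, 10 members in 7 comparisons, 34 had an unadjusted p under 0.05 and 0 of these changed sign under an alternative. Of the other 36, 17 changed sign under at least 1. With only the libraries of a comparison in the fit, 5 members passed in KOCKD + RNLS against KOCKD in place of 3, and 2 in WTCKD + RNLS against WTSHAM in place of 6, while calls over all genes went from 2109 to 3195 and from 966 to 298. DESeq2 called 5 members in KOCKD + RNLS against KOCKD and 2 in the difference between genotypes, beside 19.1% and 5.55% of the genes to which it gave an adjusted p. With the atrial score as a covariate, chosen after seeing the data, 1 member passed in WTCKD against WTSHAM, 3 in the averaged RNLS effect and 3 in WTCKD + RNLS against WTSHAM. Calls over all 13021 genes were 426, 2041 and 793 in these comparisons. The fit without the 4 libraries high in atrial markers, also chosen later, kept 1 WTCKD library, so its calls are not counted here. Leaving out each library in turn gave 0 to 1 members in WTCKD against WTSHAM and 1 to 6 in WTCKD + RNLS against WTSHAM, with 1 without WTSHAM replicate 2 or WTCKD + RNLS replicate 2, 2 without WTSHAM replicate 3 and 3 without WTCKD + RNLS replicate 1. Calls over all genes ran from 126 to 408 and from 406 to 1472. In the latter comparison they were 406, 630, 539 and 710 without those 4 libraries in the same order. The log2 change of the Col15a1 to Col18a1 ratio was -0.0348 with FPKM, -0.0179 with an added count of 5, and -0.14 to 0.13 without each library in turn. The cause of these changes was not tested. Libraries with the same replicate number did not pair (30 correlations from -0.36 to 0.33, median -0.04, 5 over 0.1), so they share only a number, and with the replicate block 0, 3, 4, 5, 0, 0 and 4 members passed in the 7 comparisons in the order of CKD, RNLS in wild type, RNLS in knockout, averaged, genotype, difference and RNLS against sham. In the same order 267, 518, 1967, 2213, 2, 0 and 828 of all 13021 genes passed. The exact test of the ratios within the block gave a p adjusted over the 3 ratios of 0.0469 for Col4a1 to Col4a2 and for Nid1 to Nid2. Both rest on the smallest p that this test can give. With 3 hearts a group and 2 to 9 CPM, Col4a3 has intervals over 1 wide on the log2 scale.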

Other observations

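Glial and circadian clock genes were among the other lists with members past the threshold. All 5 glial markers fell in the averaged RNLS effect, among them Kcna1, S100b and Sox10, and their sum was 18.2 to 27.0 CPM in WTCKD and 5.01 to 9.11 CPM in WTCKD + RNLS. Of 14 clock genes, 3 fell and 6 rose in wild type and 1 fell and 7 rose in knockout, with Arntl, a core activator of the clock, at log2 fold changes of -4.06 (adjusted p = 0.00284, edgeR) and -3.66 (adjusted p = 0.00261). In the averaged RNLS effect 3 fell and 10 rose, where 7.27% of all genes fell and 10.6% rose. By edgeR 0 clock genes passed in WTCKD against WTSHAM and 0 in KOCKD against WTCKD. How far this shift bears on the other RNLS results was not tested. Of 10 pericyte and smooth muscle markers only Abcc9, a potassium channel subunit, passed, with rises of 0.46 (adjusted p = 0.0136) and 0.62 (adjusted p = 0.00134), and their sum was 1528 to 2005 CPM in WTCKD and 1632 to 1903 CPM in WTCKD + RNLS. Of 22 tested markers of the atrial, adipocyte, erythrocyte, mesothelial and skeletal muscle lists, 0 passed with RNLS in either genotype by edgeR's adjusted p, while 10 in wild type and 3 in knockout had an unadjusted p under 0.05.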
